A study of Mus musculus with 2 samples.

Results

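The miR-302/miR-367 cluster is a group of 5 miRNA genes, Mir302b, Mir302c, Mir302a, Mir302d and Mir367, which lie side by side on mouse chromosome 3. They were found among 1973 counted miRNA genes by gene ID, through the GENCODE M21 annotation of GRCm38 (mm10), and all 5 were in the count tables with the same ID version. The samples were hearts of B6NCrl mouse embryos at day 11.5, healthy, with male and female embryos pooled. This was the only group, with biological replicates 1 and 2; hearts of 109 embryos went into replicate 1, and both carry the same donor label. No treatment or genotype contrast was part of the design, so the results are levels, their order within the cluster, and how far the libraries agreed.

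miRNAs are short RNAs cut from hairpin precursors, and they repress messenger RNAs whose sequence pairs with the seed, bases 2 to 8 of the mature strand. The miR-302/miR-367 cluster is transcribed as 1 precursor that carries all 5 hairpins. It is known as a cluster of pluripotent stem cells and of early embryonic progenitors. In the developing mouse heart it is known to act on cardiomyocyte proliferation through Hippo pathway components. miR-367 rides on the same precursor but belongs by seed to another family, that of miR-25, miR-32, miR-92 and miR-363.

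The mature arms of the members are shown because the seeds decide which genes of the table can be compared with them. All 5 members had at least 1 mature sequence in the RefSeq table for GRCm38.p6. Capitals mark the seed, and sequences run 5′ to 3′. The 5p arms come from the left side of the hairpin and the 3p arms from the right side.
miR-302b-5p: aCUUUAACaugggaaugcuuucu
miR-302c-5p: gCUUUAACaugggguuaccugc
miR-302a-5p: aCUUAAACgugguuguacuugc
miR-302d-5p: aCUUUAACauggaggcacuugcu
miR-367-5p: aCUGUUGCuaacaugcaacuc
miR-302b-3p: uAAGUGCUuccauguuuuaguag
miR-302c-3p: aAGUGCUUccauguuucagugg
miR-302d-3p: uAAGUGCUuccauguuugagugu
miR-367-3p: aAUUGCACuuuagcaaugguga

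miR-302b-3p and miR-302d-3p had the seed AAGUGCU. The annotated miR-302c-3p began 1 base further along the shared run, so that its seed by position read AGUGCUU. The first 17 bases of miR-302b-3p and miR-302d-3p were the same, and 20 of their 23 positions matched. miR-302c-3p shared a run of 16 bases with each of them. The 3p arm of miR-367 shared no run longer than 5 bases with those 3 arms. On the 5p side, Mir302b, Mir302c and Mir302d shared the seed CUUUAAC, which no other gene of the table with a RefSeq mature sequence carried (916 genes matched by symbol). Mir302a had CUUAAAC there, also carried by no other matched gene.

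The cluster spans 580 bases, chr3:127545228-127545807 on GRCm38, plus strand. It lies in an intron of Larp7, a protein-coding gene on the opposite strand, between Larp7 exons that end at 127544278 and start at 127545826. No other annotated gene overlapped it. Mir302b (ENSMUSG00000076252.1) comes first, from 127545228 to 127545301, followed by Mir302c (ENSMUSG00000065482.1) from 127545363 to 127545430. Mir302a (ENSMUSG00000065552.1) runs from 127545496 to 127545564 and Mir302d (ENSMUSG00000065447.1) from 127545624 to 127545689. Mir367 (ENSMUSG00000065413.2) is the last, from 127545733 to 127545807. The gaps between neighbours were 61, 65, 59 and 43 bases. Each GENCODE M21 gene model had the start and end of the RefSeq hairpin and held the whole of its listed mature arms, the 2 arms of Mir367 included. The counts were made on GENCODE M4, where the ID versions of the members were the same but coordinates were not compared.

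The hairpins resembled each other in size and base composition as well. Their lengths were 66 to 75 bases. GC content was 39.2% for Mir302b, 39.4% for Mir302d, 42.0% for Mir302a, 42.7% for Mir367 and 47.1% for Mir302c, all below the median of 50.5% over 354 detected genes with a RefSeq hairpin. Predicted folding energies were -34.5 kcal/mol for Mir367, -31.7 for Mir302a, -28.6 for Mir302c, -27.5 for Mir302d and -23.3 for Mir302b. Mir367, the longest hairpin at 75 bases, had the lowest predicted energy and, as given next, the lowest count of the 5. Per base, energies were -0.460 for Mir367, -0.459 for Mir302a, -0.421 for Mir302c, -0.417 for Mir302d and -0.315 for Mir302b. The median over detected hairpins was -0.434. Mir302a, close to Mir367 in energy per base, was the most counted member. A link between folding energy and count was not tested.

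Counts are reads on the gene's own strand, and levels (CPM) are counts per 1000000 own-strand counts on miRNA genes in that library. Those totals were 18467499 in replicate 1 and 2017294 in replicate 2, so replicate 1 was 9.15 times deeper. The limit that a count of 0 allows, 3 counts of each total, was 0.162 CPM in replicate 1 and 1.49 CPM in replicate 2. CPM were not divided by gene length, since a miRNA read covers a mature strand whole. Intervals are exact 95% Clopper-Pearson intervals, which cover counting error only. Detection means 1 CPM or more in both libraries, which held for 419 of 1973 genes. Markers of heart cells were present: the cardiac muscle list took 5.84% and 6.31% of counts in replicates 1 and 2. Its 6 genes were Mir208a, Mir208b, Mir499, Mir1a-1, Mir133a-1 and Mir133a-2, of which 5 were detected. The share is their sum and is not split by gene here. Reads that mapped to several places stood on no gene and were 33.8% and 33.2% of mapped reads.

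The 4 Mir302 genes were counted at means of 581 to 4037 CPM, and Mir367 lay at the edge of detection. Together the 5 members took 1.16% of miRNA counts in each library, with intervals of 1.156 to 1.166% in replicate 1 and 1.146 to 1.176% in replicate 2. Those were 214379 and 23419 counts. Mir302a led, then Mir302d, Mir302b and Mir302c. The plot of level by position along the cluster shows that this order does not follow the order of the hairpins: Mir302c, in the second place, lay below its neighbours on both sides, and the last hairpin lay lowest.

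**Figure D1:**
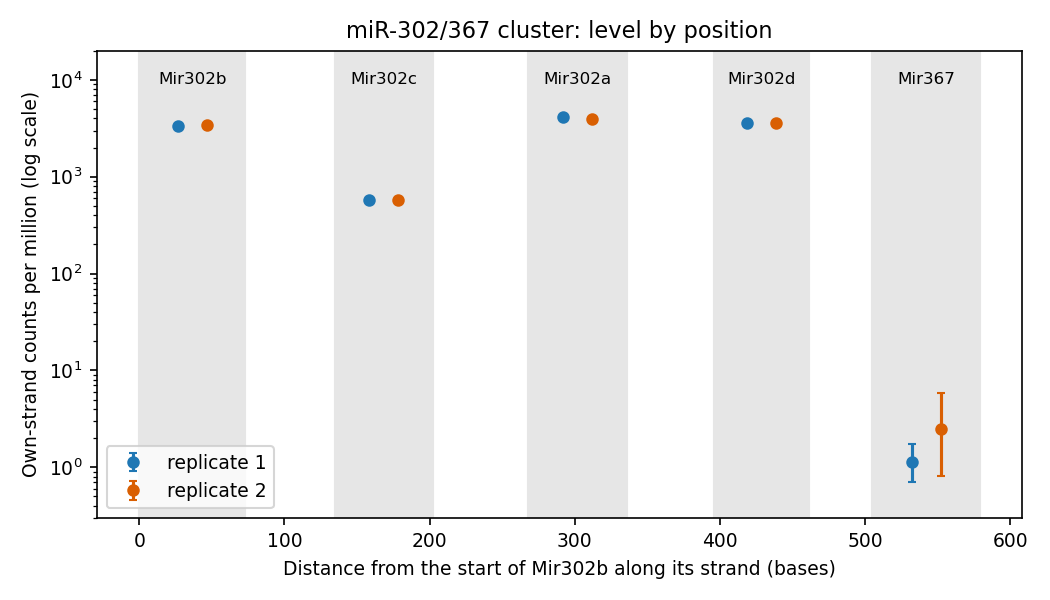
Own-strand CPM (log axis) of each member against its distance in bases from the start of Mir302b. Grey bands are the hairpins, points the libraries, and bars exact 95% intervals; 4 members lie between 580 and 4090 CPM and Mir367 at 1.14 and 2.48 CPM.

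Mir302a, the most counted member, had 75523 counts in replicate 1 and 8037 in replicate 2. These were 4090 CPM (4060 to 4119) and 3984 CPM (3898 to 4072), a mean of 4037 ± 75 CPM (SD, n = 2). It ranked 41st of all counted genes by mean CPM. Replicate 1 was the higher of the libraries, and the intervals overlapped.

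Mir302d had 67000 and 7264 counts, which were 3628 CPM (3601 to 3656) and 3601 CPM (3519 to 3684). Its mean was 3614 ± 19 CPM (SD, n = 2), at rank 46. The intervals of the libraries overlapped. Both values lay below both values of Mir302a.

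Mir302b, the first hairpin, had 61097 and 6942 counts. They came to 3308 CPM (3282 to 3335) and 3441 CPM (3361 to 3523), a mean of 3375 ± 94 CPM (SD, n = 2) and rank 49. Replicate 2 was the higher here, and the intervals of the libraries did not overlap. The range of Mir302b over the libraries did not reach that of Mir302d.

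Mir302c had 10738 and 1171 counts, or 581 CPM (571 to 593) and 580 CPM (548 to 615). Its mean was 581 ± 0.69 CPM (SD, n = 2), at rank 104, and the SD was 4.69 CPM with edgeR's TMM scaling. This member, whose annotated 3p arm starts 1 base later than those of Mir302b and Mir302d, stood well below the other Mir302 genes in both libraries.

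Mir367 had 21 counts in replicate 1 and 5 in replicate 2. These were 1.14 CPM (0.704 to 1.74) and 2.48 CPM (0.805 to 5.78), a mean of 1.81 ± 0.95 CPM (SD, n = 2), at rank 409. It passed the detection limit in both, but both intervals reach below that limit. Per 1000000 mapped reads it was 0.591 in replicate 1 and 1.41 in replicate 2, so that with this denominator replicate 1 fell below the limit. Among the 419 detected genes, 373 had more counts than Mir367 in both libraries.

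On the strand opposite the cluster, which is the strand of Larp7, the tables held 0 reads over every member in both libraries. The values above are therefore the same counts with strand ignored. The level of Mir367 rests on few reads.

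The order within the cluster was tested next as ratios of counts inside each library, which do not depend on the library total. A pair was called ordered on 3 conditions: the direction was the same in both libraries, equality lay outside each exact binomial interval, and the mean log2 ratio was larger than its SD. By this rule 10 of 10 pairs were ordered. No p is given, since a two-sided exact test over 2 libraries cannot go below 0.5. The ratios compare counts and not amounts of RNA, since unequal capture of different miRNAs would not show in the SD.

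Neighbours in the order lay close together at the top. Mir302a exceeded Mir302d 1.13-fold in replicate 1 (1.12 to 1.14) and 1.11-fold in replicate 2 (1.07 to 1.14), with a mean log2 ratio of 0.16 ± 0.02 (SD, n = 2). Mir302d exceeded Mir302b 1.10-fold (1.08 to 1.11) and 1.05-fold (1.01 to 1.08), a log2 ratio of 0.10 ± 0.05. This was the smallest step, and the lower bound in replicate 2 was close to equality.

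The step down to Mir302c was large. Mir302b exceeded Mir302c 5.69-fold in replicate 1 (5.57 to 5.81) and 5.93-fold in replicate 2 (5.57 to 6.31), a log2 ratio of 2.54 ± 0.04 (SD, n = 2). Mir302a exceeded it 7.03-fold and 6.86-fold, a log2 ratio of 2.80 ± 0.02. The libraries gave nearly the same values for both.

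The step to Mir367 was far larger and much less precise. Mir302c exceeded Mir367 511-fold in replicate 1 (334 to 826) and 234-fold in replicate 2 (100 to 723). Mir302a exceeded it 3596-fold (2353 to 5810) and 1607-fold (689 to 4952), a log2 ratio of 11.23 ± 0.82 (SD, n = 2). Summed, the 4 Mir302 genes stood 10207-fold above Mir367 in replicate 1 (6677 to 16490) and 4683-fold above it in replicate 2 (2006 to 14423). The values of the libraries differ by over 2 times, and their intervals overlap.

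As shares of the cluster's own counts, Mir302a made up 35.2% in replicate 1 (35.0 to 35.4) and 34.3% in replicate 2 (33.7 to 34.9). Mir302d made up 31.3% (31.1 to 31.4) and 31.0% (30.4 to 31.6). Mir302b made up 28.5% (28.3 to 28.7) and 29.6% (29.1 to 30.2). Mir302c made up 5.01% (4.92 to 5.10) and 5.00% (4.72 to 5.29), and Mir367 0.00980% (0.00606 to 0.0150) and 0.0214% (0.00693 to 0.0498). The composition was alike in both, although the intervals of Mir302a and of Mir302b did not overlap between libraries.

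**Figure D2:**
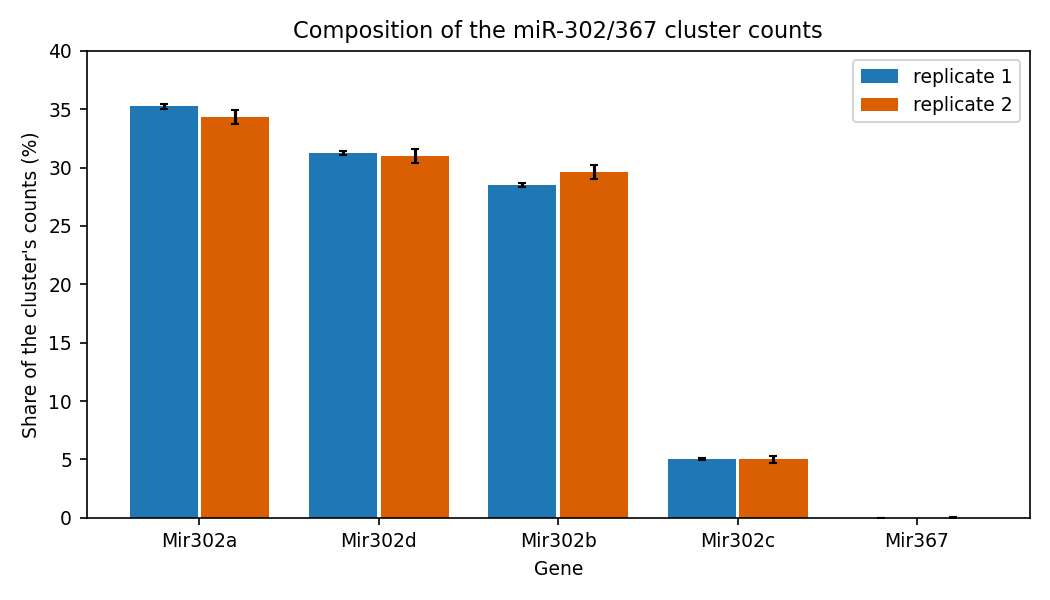
Share of the cluster's own-strand counts (percent, axis from 0) of each member in replicates 1 and 2, with exact 95% intervals. Mir302a, Mir302d and Mir302b each hold 28.5 to 35.2%, Mir302c about 5.0%, and Mir367 too little to show as a bar.

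One sequence feature bears on how Mir302a and Mir302b were counted. Of the runs of 20 bases in the RefSeq hairpins, 1 of 50 in Mir302a and 1 of 55 in Mir302b were the same run. A read inside that run matches both genes, and reads with several places stood on no gene. Mir302c, Mir302d and Mir367 shared no run of 20 bases with any other hairpin of the table. How many reads of Mir302a and Mir302b were left out in this way, and whether runs recur elsewhere in the genome, was not tested.

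The libraries were then compared gene by gene over all 419 detected genes. The test was exact binomial and two-sided, its null share set by the library totals, and p-values were adjusted over all those genes (Benjamini-Hochberg). That test compares these libraries and not conditions, and covers counting error only. At an adjusted p under 0.05 and at least 2-fold, 0 of the 5 members were called, against 2.63% of detected genes. At an unadjusted p under 0.05, 2 of the 5 passed, Mir302a and Mir302b, against 34.8% of detected genes. The exact test of edgeR, with 1 dispersion for all genes and the same fold minimum, called 0 of the 5 and 1.19% of detected genes. That dispersion, a biological coefficient of variation of 17.6%, came from these same libraries treated as replicates. The differences under test enter it, so small ones cannot be called.

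**Figure D3:**
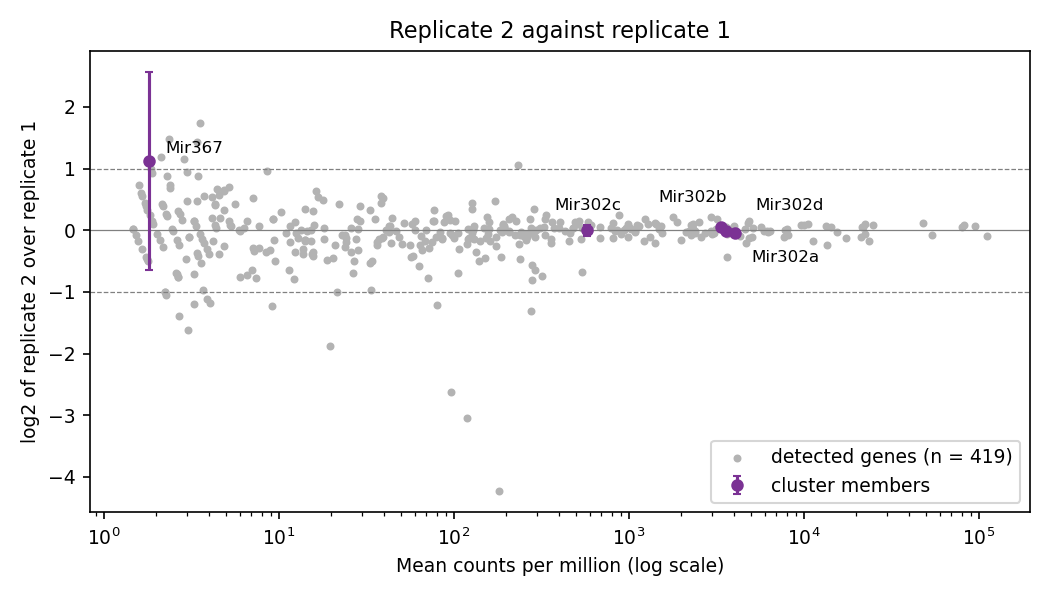
The log2 ratio of replicate 2 over replicate 1 against mean CPM (log axis) for the 419 detected genes (grey) and the 5 members (purple, with exact 95% intervals). Dashed lines mark 2-fold; the 4 Mir302 genes lie near 0 and Mir367 has a wide interval.

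With no fold minimum, 29.4% of detected genes passed (14.3% higher and 15% lower in replicate 2), and 68.6% of the 86 genes at a mean of 1000 CPM or more. Among the members only Mir302b passed, with replicate 2 at 1.04 times replicate 1 (1.01 to 1.07; exact binomial test, adjusted p = 0.00888). This 1 of 5 stands beside 29.4% of all detected genes. Mir302a stood at 0.974 (0.952 to 0.997; exact binomial, adjusted p = 0.0812), Mir302d at 0.993 (0.969 to 1.02) and Mir302c at 0.998 (0.939 to 1.06). With TMM scaling the call passed from Mir302b, at 1.03 with an adjusted p of 0.0644 by the exact binomial test, to Mir302a, at 0.965 with an adjusted p of 0.00992; 28.2% of detected genes passed there. Differences of this size therefore hang on the scaling of the libraries.

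Mir367 stood at 2.18 times its replicate 1 level in replicate 2, with an interval of 0.642 to 5.94 that includes equality (exact binomial, adjusted p = 0.378). The median log2 ratio of the 5 members was 0.00 and that of all detected genes -0.01. The coefficient of variation over the libraries was 1.85% for Mir302a, 0.531% for Mir302d and 2.78% for Mir302b, all under the median of 3.43% over genes at 1000 CPM or more. For Mir302c, at a mean of 581 CPM and so outside that class, it was 0.118%. For Mir367 it was 52.5%, against a median of 7.17% over all detected genes. Of those 419 genes, 373 had more counts than Mir367 in both libraries, so these values are not at like depth. With 21 and 5 counts, counting error alone is large.

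Marker lists of cell types that a heart sample could hold were summed in the same libraries. The epithelial list took 0.214% of counts in replicate 1 and 0.149% in replicate 2, with 7 of 7 genes lower in replicate 2 by the exact binomial test without a fold minimum. The liver and endoderm list took 0.0919% and 0.0594%, with 3 of 6 lower, 2 of them past 2-fold. Only 1 of 6 neural genes in the table was detected, against 419 of all 1973 genes, and it was lower and past 2-fold. That list took 0.00304% and 0.00144%. Its genes are marked by symbol as having several loci, and reads with several places stood on no gene. Low counts here therefore say little about neural RNA. Higher in replicate 2 were 4 of the 5 detected cardiac muscle genes, 1 of them past 2-fold, 2 of 2 smooth muscle genes (9.37% and 9.86% of counts) and endothelial Mir126a (7.95% and 8.47%). The blood cell list, at 0.126% and 0.122%, had 1 of 4 higher and 1 lower, and the mesenchyme list, at 0.548% and 0.506%, had 1 of 4 lower. Among all detected genes, 14.3% were higher and 15% lower in replicate 2 by the same test. At least 2-fold, 2.63% were called. Of genes at a mean of 1000 CPM or more, 68.6% passed without a fold minimum, so a call is common for abundant genes. Whether cells of any of these types carry the cluster's reads was not tested. In a bulk sample, fewer cells of a type and less RNA per cell cannot be told apart.

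The seeds of the cluster were next set against other genes that carry them or close relatives. For the seed AAGUGCU these were genes of the miR-290 cluster on chromosome 7, which is known from mouse embryonic stem cells. For the seed of miR-367-3p they were Mir25, Mir32, Mir363, Mir92b and both Mir92 loci. The miR-17 group, known from proliferating cells, has AAAGUGC, which holds the same core moved by 1 base. The sequences below show that likeness, again with seeds in capitals.
miR-294-3p: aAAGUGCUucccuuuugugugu
miR-291a-3p: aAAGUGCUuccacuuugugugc
miR-295-3p: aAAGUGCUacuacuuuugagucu
miR-17-5p: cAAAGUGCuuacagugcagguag
miR-20a-5p: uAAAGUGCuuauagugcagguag
miR-25-3p: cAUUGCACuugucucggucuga
miR-92a-3p: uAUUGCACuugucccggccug
miR-363-3p: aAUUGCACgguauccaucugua

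The miR-302/miR-367 cluster far outnumbered the miR-290 cluster. The latter had 12328 counts in replicate 1 and 1230 in replicate 2 over the 7 of its 10 listed genes that are in the table, 0.0668% and 0.0610% of miRNA counts. The former exceeded it 17.4-fold (17.1 to 17.7) and 19.0-fold (18.0 to 20.2), a log2 ratio of 4.19 ± 0.09 (SD, n = 2), larger than the spread. Mir294 was its most counted gene, at 273 and 245 CPM. Mir293 stood at 253 and 239 CPM, Mir292 at 90.5 and 81.8 CPM and Mir291a at 26.3 and 21.8 CPM. Of its 6 detected genes, 0 passed the library test without a fold minimum, against 29.4% of all detected genes. They had 18 to 495 counts in replicate 2, too few for small differences to be called, so this 0 is no sign of stability. Each of these levels lay below that of Mir302c. The 5p arms of miR-291a and miR-291b share a run of 20 bases, and reads with several places stood on no gene. Counts of Mir291a and Mir291b can therefore be too low, which the intervals do not cover. How many reads were left out was not tested.

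Restricted to genes with the seed AAGUGCU, Mir302b and Mir302d together exceeded Mir291a, Mir294 and Mir295 22.5-fold in replicate 1 (21.9 to 23.1) and 25.4-fold in replicate 2 (23.4 to 27.7). Mir302a, the most counted member, is not in this comparison: its listed arm is the 5p arm, so the 5 genes are those with the seed on a listed arm and not a full family. Counts per gene pool both arms of a hairpin, so the share of reads with the seed itself is not known.

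The miR-17 group was more abundant. Its 6 genes took 4.23% and 4.09% of counts, and the miR-302/miR-367 cluster stood at 0.274 of that in replicate 1 (0.273 to 0.276) and 0.284 in replicate 2 (0.279 to 0.288), a log2 ratio of -1.84 ± 0.03 (SD, n = 2), larger than the spread. Mir17 stood at 22123 and 20501 CPM, Mir20a at 8024 and 8163 CPM, Mir93 at 6229 and 6182 CPM and Mir106b at 5632 and 5811 CPM. Mir302a lay below each of these 4. In the library test without a fold minimum, 1 of the 6 was higher and 2 were lower in replicate 2. Among all detected genes these shares were 14.3% and 15%, and 68.6% of genes at a mean of 1000 CPM or more passed in either direction.

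Mir367 stood far below its seed relatives. The 6 other genes took 0.401% and 0.390% of counts. Mir92-1 led at 2985 and 2963 CPM, followed by Mir25 at 380 and 344 CPM, Mir32 at 193 and 197 CPM and Mir363 at 190 and 187 CPM. Mir92-1 and Mir92-2 carry the same mature 3p arm. A read inside that arm matches both loci, and reads with several places stood on no gene. The counts of both loci are therefore uncertain and can be too low. How many reads were left out was not tested. Mir367 had 21 counts against 74103 in replicate 1 and 5 against 7871 in replicate 2, a log2 ratio of -11.20 ± 0.82 (SD, n = 2), larger than the spread. Mir92-1 held 55123 of the 74103 counts, and without both Mir92 loci the log2 ratio was -9.06 ± 0.89. Mir92-2 had the lowest counts of the relatives, at 90.0 and 82.8 CPM, with reads of its 3p arm possibly left out. The least counted relative besides the Mir92 loci, Mir92b, stood at 175 and 128 CPM. Both lay far above Mir367.

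**Figure D4:**
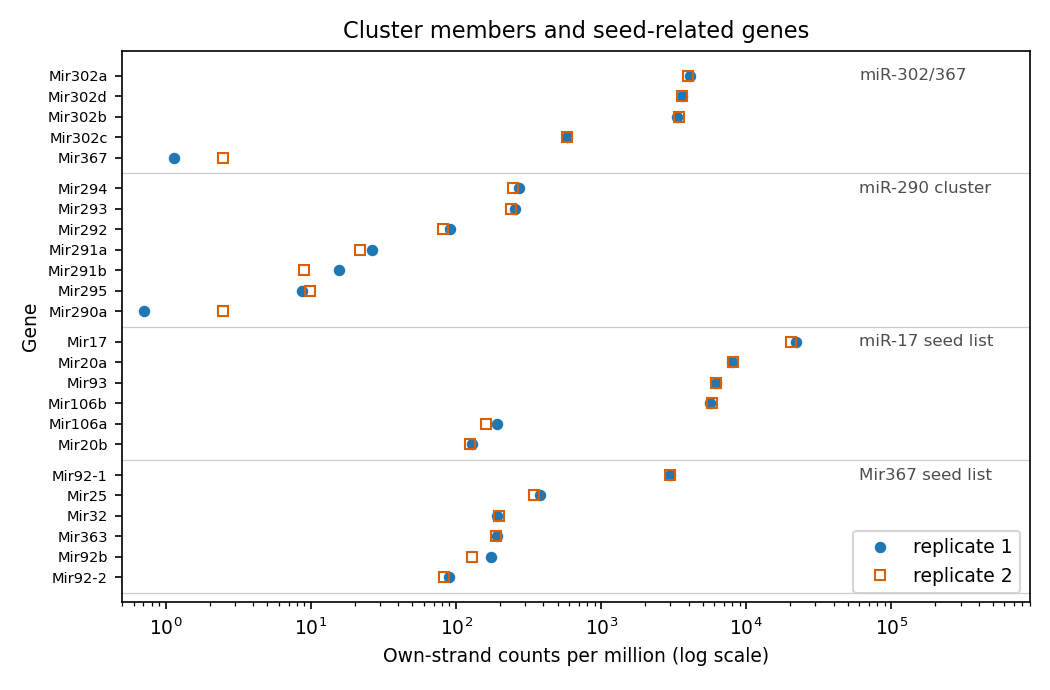
Own-strand CPM (log axis) in replicate 1 (filled circles) and replicate 2 (open squares) for the cluster, the miR-290 cluster, the miR-17 group and the seed relatives of Mir367, 1 gene a line. Mir367 lies below all 6 of its seed relatives, and the 4 Mir302 genes lie above all genes of the miR-290 cluster.

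To set the step from Mir302d to Mir367 beside other adjacent hairpins, neighbouring genes on the same strand within 1000 bases were listed, a comparison chosen after the values were seen. Genes marked by symbol as having several loci were left out, and the higher gene had to reach a mean of 1000 CPM. Of the 32 pairs, Mir302d and Mir367 had the largest difference on the log2(CPM + 1) scale, 10.37 ± 0.50 (SD, n = 2). The next, Gm22678 and Mir467d, at 10.35 ± 0.30, did not differ from it beyond the spread. Adding 1 CPM understates steps to genes near or below 1 CPM. This holds for Mir367, and more so for Gm22678, at a mean of 0.162 CPM, and for Mir432, at 0 CPM beside Mir434 at 1002 CPM. The first place therefore holds on this scale only and does not make the step to Mir367 the steepest. Of all pairs 4 exceeded 8, and the median was 3.72. Within the cluster, Mir302c and Mir302a differed by 2.79, Mir302b and Mir302c by 2.54 and Mir302a and Mir302d by 0.16, below that median.

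**Figure D5:**
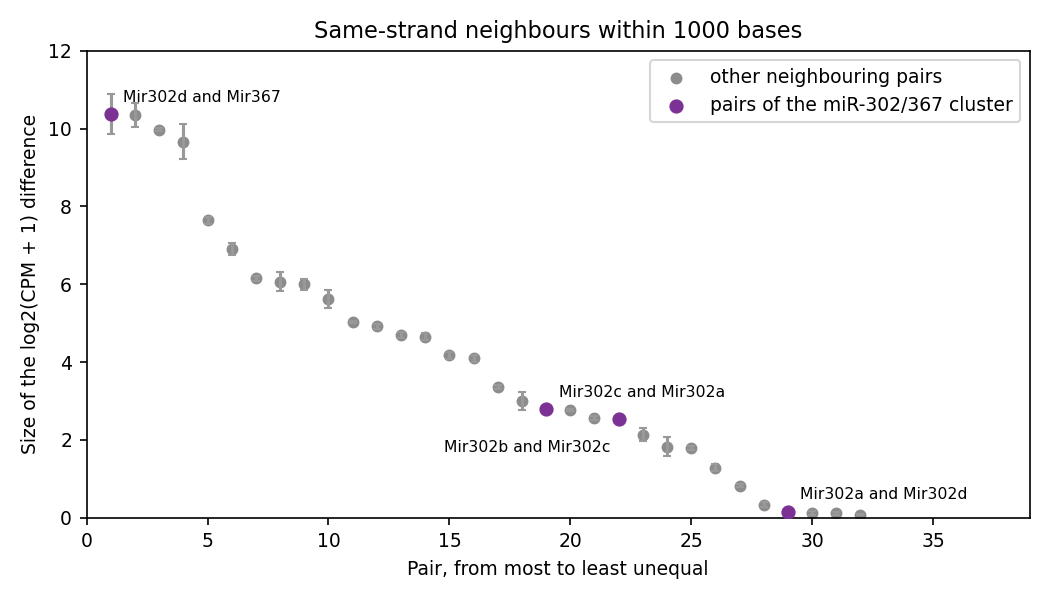
Size of the log2(CPM + 1) difference between same-strand neighbours within 1000 bases, ordered from most to least unequal; points are means over the 2 libraries and bars 1 SD. The 4 pairs of the cluster are purple; Mir302d and Mir367 lie at 10.37 among 4 pairs above 8, and the other 3 pairs lie below the median of 3.72.

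The genes of most similar level over the 2 libraries, by distance in log2(CPM + 1), were Mir127 for Mir302a (4220 and 4060 CPM, distance 0.05) and Mir369 for Mir302d (3743 and 3603 CPM, distance 0.04). For Mir302b it was Mir324 (3430 and 3544 CPM, distance 0.07), and for Mir302c Mir300 (580 and 593 CPM, distance 0.03). For Mir367 it was Mir297a-2 (1.25 and 2.48 CPM, distance 0.07), a gene with several loci. With 2 libraries this likeness is one of level alone.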

How the data were processed

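For each of the 2 heart libraries the authors deposited unnormalized counts of reads per miRNA gene. The build was mm10 and the annotation GENCODE M4, per the file headers. They used an aligner and a counter not given in the sources used here. A table has 3 count columns without names; the second was taken as reads on the gene's own strand and the third as the opposite strand, because they add up to the first for every gene. Unmapped (38.4% and 27.5%), multimapping (20.8% and 24.1%) and featureless reads (8.77% and 7.04%) stand in rows of their own, which were left out of library totals and tests. Symbols and coordinates came from GENCODE M21 and sequences from RefSeq (GRCm38.p6).

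CPM, exact binomial intervals and tests (scipy 1.17.1) were computed from own-strand counts and checked on simulated data. The simulated counts held counting error only (Poisson), so the check does not show how the tests behave with further variation between libraries. Hairpins were folded with RNAfold 2.7.2. Alternatives used edgeR 4.0.16 and DESeq2 1.42.0. Genes named besides the members were up to 4 per seed list and the nearest gene in level. The members and lists were chosen with earlier results of these data known. The labels give the libraries as biological replicates, with no word on how the embryos were divided. A count of 0 and each interval cover counting error only.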

Additional observations from a re-analysis of the deposited data

How the results depend on the processing

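No paired analysis was possible because the series has 1 group. With each replicate left out, the cluster took 1.16% of counts in both cases, the ordered pairs numbered 10, and the log2 ratio to the miR-290 cluster ran from 4.12 to 4.25, that to the miR-17 group from -1.87 to -1.82 and that of Mir367 to its relatives from -11.78 to -10.62. The levels ran from 3308 to 3441 CPM for Mir302b, 580 to 581 for Mir302c, 3984 to 4090 for Mir302a, 3601 to 3628 for Mir302d and 1.14 to 2.48 for Mir367. With strands summed, the larger library totals lowered the share to 1.11% and the levels to 3222 CPM for Mir302b, 555 for Mir302c, 3854 for Mir302a and 3450 for Mir302d. Per 1000000 mapped reads, the share was 0.633% and the levels 1841, 317, 2199 and 1970 in the same order; the larger denominator sets both shifts, and 4 members in place of 5 reached the detection limit. Without a fold minimum, members called between the libraries numbered 1 in place of 0, and 1 with TMM or DESeq2 factors (28.2% of detected genes under each), alternatives added after the data were seen; under those factors Mir302a took the place of Mir302b. Thinned to the depth of replicate 2, replicate 1 held 2 counts of Mir367, and 10 pairs stayed ordered. Without both Mir92 loci the log2 ratio of Mir367 to its relatives was -9.06 in place of -11.20; the lists for the other 2 ratios hold no such multi-locus gene, so that alternative could not change them. With n = 2, a level from either library alone lies within the SD by construction and is no sign of stability. The 10 pairs were likewise bound to stay ordered in either library alone, since the rule already requires the order in each.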

Other observations

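Steep steps between adjacent hairpins were also seen in other clusters among the 32 neighbouring pairs, as values with no explanation. In the miR-17-92 cluster, Mir19a stood at a mean of 39.6 CPM between Mir18 at 4840 CPM and Mir20a at 8093 CPM, differences of 6.90 and 7.64 on the log2(CPM + 1) scale. Mir301b stood at 59.9 CPM beside Mir130b at 4328 CPM. Mir27a stood at 337 CPM beside Mir23a at 21645 CPM. At the other end, Mir181d and Mir181c stood at 2275 and 2408 CPM, a difference of 0.08, and Mir93 and Mir106b at 6205 and 5722 CPM, a difference of 0.12.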
